A study of Mus musculus with 4 samples.

Results

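Antioxidant defence was described through 10 protein-coding genes, Sod1, Sod2, Sod3, Hmox1, Nqo1, Prdx1, Txnrd1, Gpx1, Cat and Gclm, chosen by symbol out of the 42977 genes of the deposited table. All 10 were found there, and all 10 passed the filter on low counts. The RNA came from exosomes, small vesicles that cells shed into their medium, here from cultured bone marrow mesenchymal stem cells (MSCs) of male SD rats aged 6 to 8 weeks, used at passages 3 to 4. Control libraries (MSC-Exo, 2 replicates) came from normal cells that received DMSO, the solvent. Treated libraries (MSCATV-Exo, 2 replicates) came from cells kept beforehand in 1 µmol/L atorvastatin (ATV), a statin, which blocks an early enzyme of cholesterol synthesis. How long the pretreatment lasted is uncertain, since the characteristics name 24 h where the treatment protocol names 48 h. Paired values below give replicate 1 first. Medium was taken from 10 dishes of cells, and nothing in the labels says that the 2 libraries of a group came from separate animals or cultures. No SD, SE or p-value below can therefore be said to measure the spread between animals or cultures. The SE and p-values of the fits also draw on the spread of other genes. Rat genes are described, since the genome build (rn6), the gene coordinates and the growth protocol are of rat, although the samples are registered as mouse.

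Cells meet superoxide and hydrogen peroxide as by-products of respiration. Superoxide dismutases turn superoxide into hydrogen peroxide, and catalase, glutathione peroxidases and peroxiredoxins remove the peroxide. Glutathione peroxidases and peroxiredoxins reduce it to water, drawing on glutathione and thioredoxin that are kept reduced with NADPH. The transcription factor NRF2, encoded by Nfe2l2, raises many of these genes, among them Hmox1, Nqo1, Gclm, Txnrd1 and Prdx1, when the sensor protein KEAP1 is modified by oxidants or electrophiles. In MSCs these enzymes are studied because transplanted cells meet oxidative stress in damaged tissue.

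The gene counts of a library summed to between 5350295 and 5947020. The 10 antioxidant genes held 777 and 767 of these counts in the controls against 890 and 1117 after ATV. Single counts of these genes ran from 9 to 188. Levels below are in RPKM, counts scaled to gene length in kilobases and to the library's gene total, which corrects for length and so allows genes to be set side by side. Many genes that MSCs are not known to use also carried reads, so the 1189 olfactory receptor (Olr) genes served as a reference for that level. Their median over the 4 libraries was 2.72 RPKM, against 4.76 for protein-coding genes. Within libraries the Olr median was 2.48 and 2.36 RPKM in the controls against 1.71 and 2.28 after ATV. The labelled cell type was checked against 14 MSC markers, of which 7 stood above 8.17 RPKM (3 times the Olr median), with Vim at 207 and S100a4 at 106 RPKM, while Vcam1 was at 1.95 and Col1a2 at 0 in every library. Above the same level stood 0 of 10 leukocyte, 0 of 6 endothelial, 0 of 5 adipocyte and 0 of 6 hepatocyte markers. Of 9 erythroid markers 3 did, all alpha globin genes (8.71 to 9.98 RPKM), with Alas2 at 1.44 RPKM. The summed erythroid level was 43.5 to 56.7 RPKM in MSC-Exo and 40.3 to 46.3 in MSCATV-Exo, and the summed leukocyte level 44.3 to 56.9 and 45.8 to 58.7. The summed endothelial level was 30.6 to 34.5 RPKM in the controls and 26.3 to 28.2 after ATV, without overlap. The part of other cells in the values below was not tested.

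Gpx1, Prdx1, Sod1 and Nqo1 were the most abundant of the 10 transcripts and the 4 that stood above 8.17 RPKM. Gpx1, which encodes the main cytosolic glutathione peroxidase, led with 31.3 ± 4.08 RPKM (SD over the 4 libraries), at percentile 99.1 of protein-coding genes. Prdx1, a cytosolic peroxiredoxin, followed with 22.0 ± 9.06 RPKM and Sod1, the cytosolic copper-zinc dismutase, with 16.1 ± 4.76 RPKM. No Olr gene reached the mean level of any of these 3 genes. Nqo1, a quinone reductase, stood at 11.3 ± 4.58 RPKM, a level that 8 of the 1189 Olr genes (0.673%) reached.

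The other 6 lay lower, at levels that more of the Olr genes reached. Hmox1 averaged 8.06 ± 4.54 RPKM, Txnrd1 7.66 ± 2.25, Sod2 7.05 ± 3.11, Sod3 6.77 ± 3.85 and Cat 5.84 ± 1.28 RPKM (SD over the 4 libraries). From Hmox1 down to Cat, the share of Olr genes at or above the gene's level grew from 3.78% to 11.4%. Gclm, the modifier subunit of the enzyme that starts glutathione synthesis, was lowest at 2.97 ± 1.85 RPKM, and 45.8% of the Olr genes stood as high or higher. In this order each gene's range over the 4 libraries overlapped that of the next one. Within libraries, Gpx1 stood above Prdx1 and Cat above Gclm in all 4, and the order of the other neighbours changed between libraries. Gpx1 (26.7 to 35.2 RPKM) lay above Sod1 (10.9 to 22.2) and every gene below it without overlap.

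**Figure D1:**
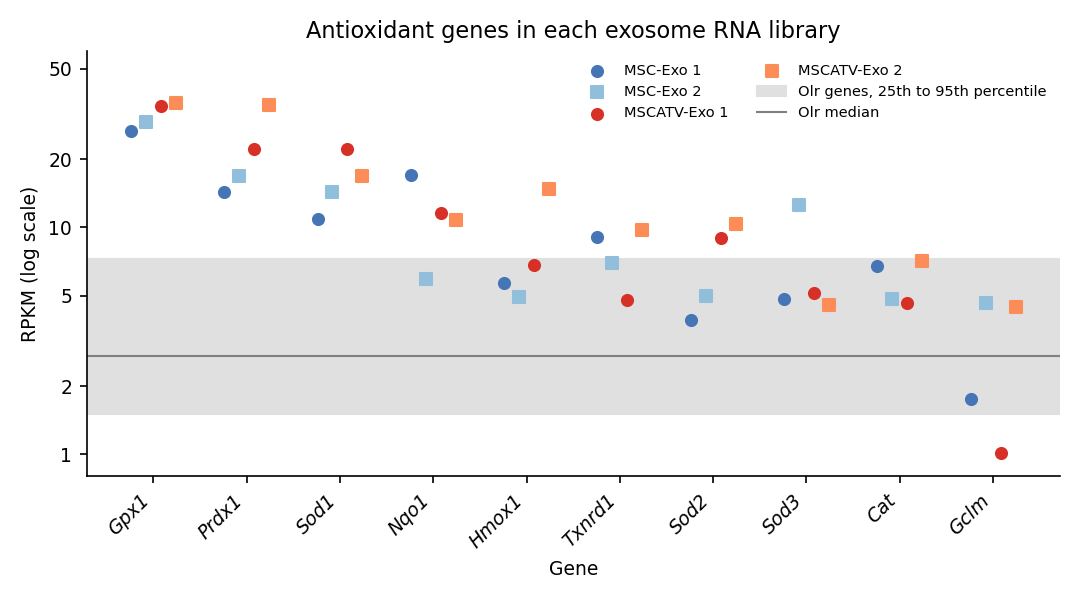
RPKM (log axis) of each antioxidant gene in the 4 libraries, ordered by mean level. Blue points are MSC-Exo, red and orange points MSCATV-Exo, the grey band spans the 25th to 95th percentile of mean RPKM of olfactory receptor (Olr) genes and the grey line is their median of 2.72 RPKM. Gpx1, Prdx1 and Sod1 lie above the band in every library, and the remaining genes have at least 1 point inside it or below it.

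**Figure D2:**
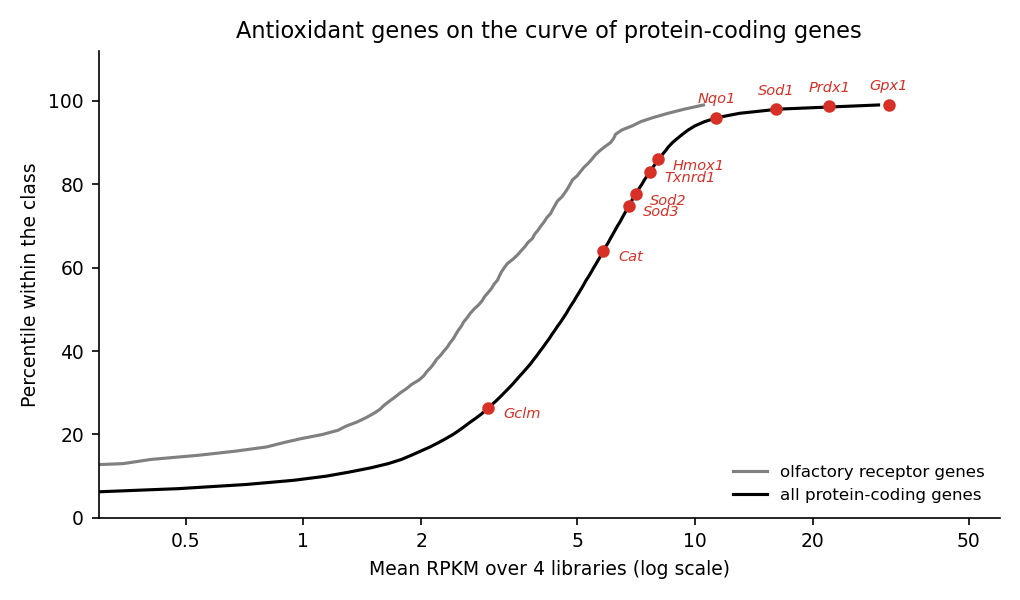
Mean RPKM over the 4 libraries (log axis) against the percentile of that level, for 1189 olfactory receptor genes (grey) and 22633 protein-coding genes (black). Red points mark the antioxidant genes on the protein-coding curve, from Gclm at percentile 26.4 to Gpx1 at 99.1.

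Both treated libraries stood above both controls for 5 of the 10 genes, Sod2, Hmox1, Prdx1, Sod1 and Gpx1, and for none of the 10 did both stand below. Over all 33480 genes tested those shares were 16.1% and 17.4%. Among the 3019 tested protein-coding genes above 8.17 RPKM, where Prdx1, Sod1 and Gpx1 belong, they were 24.2% and 12.2%, and 62.0% of such genes were higher after ATV, at a median of 0.14 on the log2 scale. Sod2 and Hmox1 belong to the genes at or below that level, where the first share was 16%.

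The edgeR quasi-likelihood test called none of the 10 genes, and 0% of the 33480 genes, at an adjusted p under 0.05. At an unadjusted p under 0.05 it found 1 of the 10, Sod2, beside 3.69% of all genes. DESeq2 called none of the 10 and 0.329% of the 32181 genes for which it gave an adjusted p. By the fitted log2 fold change 7 of the 10 genes were higher and 3 lower after ATV, where 49.4% of all genes were higher. The median was 0.26 for the 10 genes and -0.0098 over all genes, or 0.16 and -0.11 with total counts in place of the TMM factors. The 95% intervals of single genes were wide, with standard errors from 0.35 (Gpx1) to 1.15 (Gclm) on the log2 scale. An exact permutation test of 2 libraries against 2 cannot go below p = 0.333. In vesicle RNA, fewer vesicles that carry a transcript and fewer copies per vesicle cannot be told apart.

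**Figure D3:**
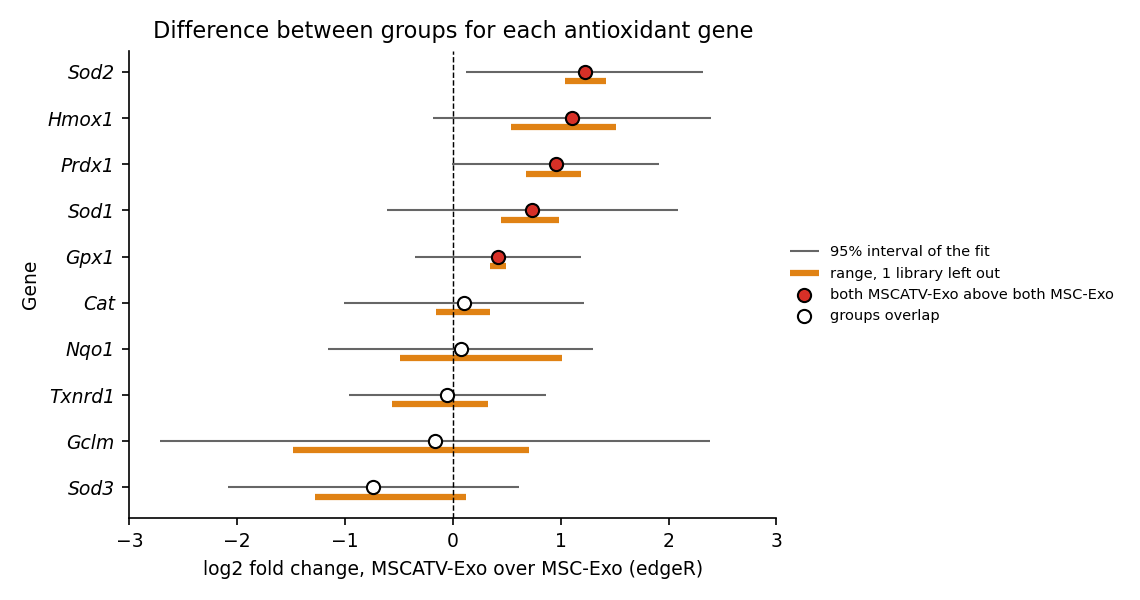
Log2 fold change of each antioxidant gene, MSCATV-Exo over MSC-Exo, from edgeR (points), with the 95% interval of the fit (thin lines) and the range with 1 of the 4 libraries left out (orange bars). Filled points are genes with both treated libraries above both controls. Sod2 alone has an interval above 0 (0.12 to 2.32), and its adjusted p was 1.00.

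Of the 3 superoxide dismutases, the 2 that work inside cells were higher in MSCATV-Exo and the secreted one was not. Sod2, the manganese enzyme of the mitochondrial matrix (NCBI gene 24787, chromosome 1, 47914757 to 47921587, minus strand), had 43 and 55 counts in the controls against 110 and 120 after ATV. All MSCATV-Exo values were high and all MSC-Exo values low, and the exact Poisson intervals at 95% of the nearest counts, 41.4 to 71.6 for 55 and 90.4 to 133 for 110, did not meet. Scaled with the TMM factors of edgeR, the mean level of Sod2 in the controls was 8.89 ± 1.63 CPM (counts scaled to library size; SD, n = 2). After ATV it was 20.8 ± 0.894 CPM (SD, n = 2), a 2.34-fold difference. Its log2 fold change was 1.22 ± 0.50 (SE), with an edgeR p of 0.0328 before and 1.00 after adjustment over all genes, and a DESeq2 adjusted p of 0.291. With any 1 library left out it lay between 1.04 and 1.42. In multiples of each library's Olr median, Sod2 stood at 1.57 and 2.10 in the controls against 5.24 and 4.56 after ATV.

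Sod1 (NCBI gene 24786, chromosome 11, 30363282 to 30368858, plus strand) had 38 and 50 counts in the controls against 86 and 61 after ATV. The groups did not overlap, but MSCATV-Exo replicate 2 stood closer to MSC-Exo replicate 2 than to the other treated library. The means were 7.99 ± 1.62 and 13.3 ± 3.44 CPM (SD, n = 2), a log2 fold change of 0.74 ± 0.61 (SE; 95% interval -0.61 to 2.08; edgeR adjusted p = 1.00). It was 0.44 without MSCATV-Exo replicate 1.

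Sod3, the extracellular dismutase, which binds to matrix and cell surfaces (NCBI gene 25352, chromosome 14, 60958583 to 60971143, minus strand), had 49 and 127 counts in the controls against 58 and 48 after ATV. MSC-Exo replicate 2 was the one high library, and the other 3 lay together, so the groups overlapped. The 127 counts of that library have a Poisson interval of 106 to 151, apart from the interval of 36.3 to 64.8 for the 49 counts of its own replicate. The log2 fold change was -0.74 ± 0.61 (SE; 95% interval -2.09 to 0.61) and turned to 0.12 without MSC-Exo replicate 2.

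Among the 3 enzymes that remove hydrogen peroxide, Gpx1 and Prdx1 were higher in both MSCATV-Exo libraries, and Cat, which encodes catalase of the peroxisome, was not. Prdx1 (NCBI gene 117254, chromosome 5, 135536413 to 135551986, plus strand) had 68 and 80 counts in the controls against 117 and 172 after ATV. The 2 MSC-Exo libraries lay close together, and the 2 MSCATV-Exo libraries, both higher, differed 1.56-fold from each other after scaling to the library total. The means of 13.4 ± 1.67 and 26.0 ± 6.54 CPM (SD, n = 2) gave a log2 fold change of 0.95 ± 0.43 (SE). Its 95% interval ran from -0.00509 to 1.91, the edgeR p was 0.0510 before and 1.00 after adjustment, and the DESeq2 adjusted p was 0.452. Leaving out a library gave 0.68 to 1.19.

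Gpx1 (NCBI gene 24404, chromosome 8, 117117430 to 117118528, plus strand) had the tightest values of the 10 genes, with 126 and 137 counts in the controls against 179 and 174 after ATV. Replicates agreed within 1.09-fold and 1.03-fold, and the difference between groups was small beside that of Sod2. The means were 23.9 ± 1.64 and 31.9 ± 1.23 CPM (SD, n = 2), a 1.34-fold difference and a log2 fold change of 0.42 ± 0.35 (SE; 95% interval -0.35 to 1.19; edgeR adjusted p = 1.00). With a library left out it was 0.34 to 0.49, and with total counts in place of the TMM factors it was 0.31, while the median of all genes moved to -0.11.

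Cat (NCBI gene 24248, chromosome 3, 93379872 to 93412058, minus strand) had 92 and 66 counts in the controls against 70 and 101 after ATV. Each group held 1 higher and 1 lower library, and the groups overlapped. The log2 fold change was 0.11 ± 0.50 (SE; 95% interval -1.01 to 1.22), and leaving out MSC-Exo replicate 2 or MSCATV-Exo replicate 2 made it -0.10 or -0.15. A ribosomal protein L7a pseudogene, LOC108350544, lies inside the Cat span on the other strand, with 53, 35, 34 and 58 counts in the same library order. The library kit does not mark strand, so reads of the 2 cannot be told apart where their exons meet.

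Hmox1 and Nqo1 encode cytoprotective enzymes that are textbook NRF2 targets. Both treated libraries were the higher ones for Hmox1 and not for Nqo1. Hmox1, whose product breaks down heme (NCBI gene 24451, chromosome 19, 14508634 to 14515455, plus strand), had 47 and 41 counts in the controls against 63 and 128 after ATV. The groups did not overlap, but most of the difference lay in MSCATV-Exo replicate 2, which held 2.16 times the share of its fellow replicate. The means were 7.97 ± 0.691 and 17.2 ± 7.99 CPM (SD, n = 2), with a log2 fold change of 1.11 ± 0.58 (SE; 95% interval -0.18 to 2.39; edgeR adjusted p = 1.00, unadjusted 0.0852). It was 0.54 with that library left out and 1.52 with MSCATV-Exo replicate 1 left out.

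Nqo1, which reduces quinones with NADH or NADPH (NCBI gene 24314, chromosome 19, 38422210 to 38437103, plus strand), had 133 and 46 counts in the controls against 100 and 88 after ATV. The 2 MSC-Exo libraries lay on either side of the treated ones and differed 2.89-fold from each other. That gap exceeded counting error, with Poisson intervals of 111 to 158 for 133 counts and 33.7 to 61.4 for 46. The log2 fold change of 0.071 ± 0.56 (SE; 95% interval -1.16 to 1.30) became 1.01 without MSC-Exo replicate 1 and -0.49 without MSC-Exo replicate 2.

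Txnrd1 and Gclm supply reducing power, and neither separated the groups. Txnrd1, the cytosolic thioredoxin reductase (NCBI gene 58819, chromosome 7, 26946124 to 26984400, minus strand), had 167 and 128 counts in the controls against 98 and 188 after ATV. The lowest and the highest library were both treated ones, 2.04-fold apart. Its log2 fold change was -0.054 ± 0.41 (SE; 95% interval -0.97 to 0.86), or -0.57 with the highest and 0.33 with the lowest library left out. The gene Eid3 lies within the Txnrd1 span on the same strand, with 10 and 31 counts in the controls against 56 and 64 after ATV, and how the authors assigned reads shared by 2 genes is not given in the sources used here.

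Gclm (NCBI gene 29739, chromosome 2, 225827504 to 225847876, plus strand) had 14 and 37 counts in the controls against 9 and 37 after ATV. Replicate 1 was low and replicate 2 high in both groups, and at these counts the interval of the difference was too wide to read, with a log2 fold change of -0.17 ± 1.15 (SE; 95% interval -2.72 to 2.38). Leaving out MSCATV-Exo replicate 2 made it -1.48, and leaving out MSC-Exo replicate 2 made it 0.71. The catalytic subunit Gclc, named as its partner after the values were seen, had 64 and 35 counts in the controls against 57 and 91 after ATV, a log2 fold change of 0.57 ± 0.62 (SE).

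Prdx1 has several pseudogenes, and their summed reads were of the order of those of the gene itself. The 7 rows with at least 10 counts whose deposited description names peroxiredoxin 1 summed to 165 and 70 counts in the controls against 95 and 101 after ATV, where Prdx1 had 68 and 80 against 117 and 172. In MSC-Exo replicate 1 the sum exceeded the count of Prdx1, and the sums overlapped between groups. Of these rows LOC100360758 held most reads, with 66 and 28 counts in the controls against 48 and 21 after ATV. LOC502175 had 3 and 10 against 0 and 44 counts, and LOC679528 had 42 and 16 against 0 and 13. The rows LOC294660, LOC678748, LOC691731 and Prdx1l1 ranged from 0 to 28 counts in a library. Of the 7 rows, Prdx1l1 is typed as misc_RNA and not as a pseudogene. For Sod2, LOC681281 is described as similar to the gene and had 12 and 26 counts in the controls against 8 and 24 after ATV. None of these rows had both treated libraries above both controls except LOC691731 (0 and 4 against 6 and 12 counts), which was too low to be tested. Reads that such a row shares with its parent gene leave the counts of Prdx1 and Sod2 uncertain, by an amount that these counts do not give. The table of non-coding transcripts assigned 0 of its 18408 features to any of the 10 genes.

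Set beside their own families, Gpx1 and Prdx1 differed in direction from their most abundant relatives, but not from all relatives. Gpx4, the glutathione peroxidase that reduces lipid peroxides in membranes, had 130 and 159 counts in the controls against 108 and 107 after ATV (log2 fold change -0.43 ± 0.39, SE). Prdx2, another cytosolic peroxiredoxin and an abundant protein of red cells, had 154 and 144 against 117 and 87 counts (-0.55 ± 0.40), and Prdx5 had 151 and 161 against 117 and 130 (-0.34 ± 0.36). For these 3 relatives both treated libraries lay below both controls, and edgeR called none of them (adjusted p = 1.00). Among the other relatives Gpx2 (0.78), Gpx3 (0.52), Gpx7 (0.44), Gpx8 (0.87) and Prdx6 (0.83) were higher by the fitted log2 fold change. Gpx5 (-1.37), Gpx6 (-1.41), Prdx3 (-0.045) and Prdx4 (-1.36) were lower.

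Ratios within a library do not depend on how libraries are scaled. The ratio of Gpx1 to Gpx4 in RPKM was 1.25 and 1.12 in the controls against 2.15 and 2.11 after ATV. The ratio of Prdx1 to Prdx2 was 0.528 and 0.665 in the controls against 1.20 and 2.37 after ATV, and that of Prdx1 to Prdx5 was 0.415 and 0.458 against 0.922 and 1.22. In all 3 ratios both treated libraries were the higher ones. This had to follow, since both treated libraries were higher for each numerator and lower for each denominator. These ratios were chosen after the values were seen and are given as a description, with no test. The ratio of Hmox1 to its constitutive relative Hmox2 varied within MSC-Exo, with 0.562 and 1.74 there and 1.73 and 2.13 in MSCATV-Exo, so the groups overlapped.

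Tissue-restricted relatives show the level that reads of a gene not expected in these cells can reach. Gpx5, known as an epididymal enzyme, had 49 and 35 counts in the controls against 30 and 2 after ATV, a mean of 3.22 RPKM over the 4 libraries. Gpx6, known from olfactory epithelium, had 69 and 24 against 8 and 27 counts, a mean of 5.13 RPKM. Both were also picked after their values were seen. Their levels lay above that of Gclm (2.97 RPKM) and below that of Cat (5.84 RPKM).

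**Figure D4:**
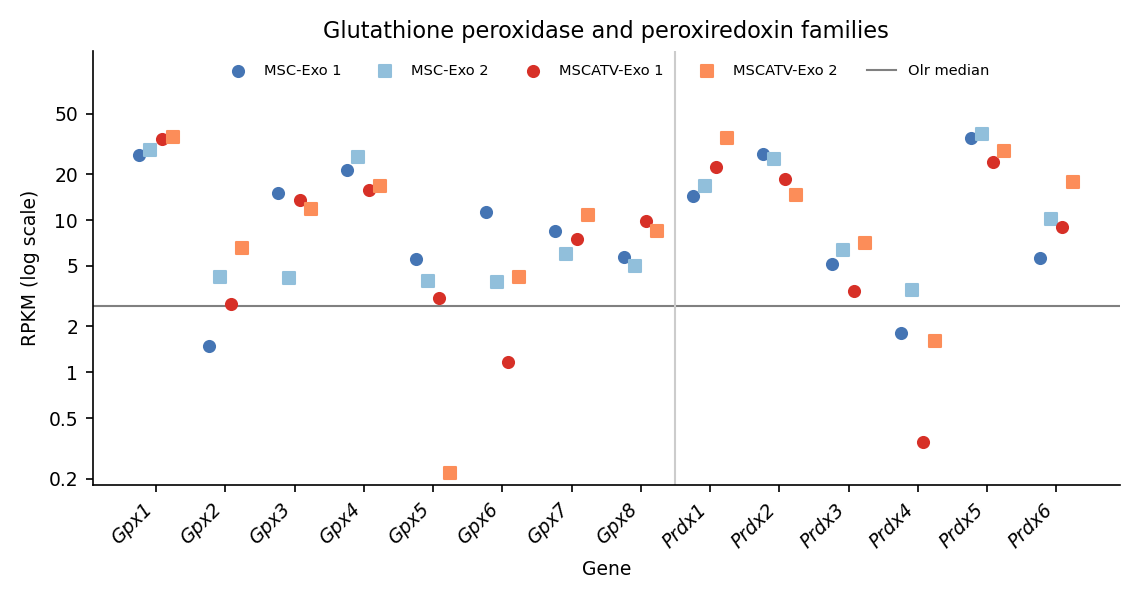
RPKM (log axis) of the glutathione peroxidase (left) and peroxiredoxin (right) genes in each library, with MSC-Exo in blue, MSCATV-Exo in red and orange and the olfactory receptor median of 2.72 RPKM as a grey line. Gpx1, Gpx8 and Prdx1 have their treated points on top, and Gpx4, Gpx5, Prdx2, Prdx4 and Prdx5 have them at the bottom.

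The wider pathway was followed through 69 further symbols in 7 lists, of which 68 were found and 67 tested. By edgeR and by DESeq2 0 of the 67 passed at an adjusted p under 0.05. By the edgeR fit 37 were higher and 30 lower after ATV, at a median of 0.082 on the log2 scale, or -0.017 with total counts in place of the TMM factors. Both treated libraries stood above both control libraries for 16.4% of them and below for 19.4%, beside 16.1% and 17.4% of all genes. Of the 68 genes found, 28 stood above 8.17 RPKM. Among all tested protein-coding genes above that level the shares were 24.2% and 12.2%. At an unadjusted p under 0.05 edgeR found 3 of the 67, Gstm2, Nnt and Ncf1, beside 3.69% of all genes.

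Of the 11 other superoxide and peroxide enzymes 5 were higher and 6 lower (median log2 fold change -0.045). Ccs, the chaperone that loads copper into SOD1, had 77 and 59 counts in the controls against 39 and 49 after ATV, the reverse of the order seen for Sod1. The ratio of Sod1 to Ccs in RPKM was 0.774 and 1.33 in the controls against 3.46 and 1.95 after ATV, an order that had to follow from these opposite orders. Gpx8, a peroxidase of the endoplasmic reticulum membrane, was the one gene of the 11 (9.09%) with both treated libraries above both controls. Over all genes tested that share was 16.1%. Gpx8 had 33 and 29 against 63 and 51 counts. Both treated libraries lay below both controls for 5 of the 11 (45.5%), Ccs, Gpx4, Prdx2, Prdx4 and Prdx5, beside 17.4% of all genes tested. That share was 12.2% among tested protein-coding genes above 8.17 RPKM, where all of these but Prdx4 belong. Ccs, Gpx8 and Prdx4 are named after their values were seen. The thioredoxin and glutaredoxin list had 8 of 12 higher (median 0.059, or -0.042 with total counts). Its most abundant member was Txn1, thioredoxin itself, at 50.1 RPKM, with 96 and 76 against 66 and 101 counts and a log2 fold change of -0.050 ± 0.49 (SE). Txn2, the mitochondrial thioredoxin, was at 0.57 ± 0.53 and Msrb1, a methionine sulfoxide reductase, at 0.082 ± 0.61.

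In the glutathione list 6 of 11 tested genes were higher (median 0.11, or -0.0051 with total counts). Gstm2, a glutathione transferase, had 51 and 48 counts in the controls against 68 and 177 after ATV. Its log2 fold change of 1.29 ± 0.56 (SE; edgeR adjusted p = 1.00, unadjusted 0.0431) became 0.48 without MSCATV-Exo replicate 2, the same library in which Hmox1 was highest. Gstp1, the most abundant transferase of the list at 18.7 RPKM, was at -0.087 ± 0.56 and Gsto1 at -0.18 ± 0.73. Slc7a11, which brings in cystine for glutathione and is a further NRF2 target, was not chosen by the rule for named genes and is given after its values were seen, with 137 and 160 against 193 and 217 counts and a log2 fold change of 0.46 ± 0.33.

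Of 8 genes of NADPH supply 5 were higher (median 0.29, or 0.18 with total counts). Nnt, the transhydrogenase of mitochondria, had 96 and 92 counts in the controls against 142 and 202 after ATV (log2 fold change 0.86 ± 0.39, SE; edgeR adjusted p = 1.00, unadjusted 0.0487). Both treated libraries stood above both controls. The pentose phosphate genes Taldo1, Pgd and Tkt were at 0.71 ± 0.58, 0.34 ± 0.40 and 0.25 ± 0.45.

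Genes that control NRF2 showed no common direction, with 6 of 10 higher (median 0.14, or 0.030 with total counts). Both treated libraries stood above both controls for 0 of the 10 and below for 2 (20%), Bach1 and Sqstm1. Over all genes tested those shares were 16.1% and 17.4%. Bach1, named after its values were seen, had 70 and 67 counts in the controls against 31 and 38 after ATV (log2 fold change -0.99 ± 0.65, SE), at a mean of 2.23 RPKM. Nfe2l2 itself had 54 and 107 counts in the controls against 123 and 65 after ATV (log2 fold change 0.22 ± 0.55, SE; -0.34 to 0.81 with a library left out), and Keap1 had 79 and 119 against 174 and 103 (0.48 ± 0.45). Both genes overlapped between groups and were named for their place in the pathway, after their values were seen. Of those picked by level, the related factor Nfe2l1 was at 0.39 ± 0.30, the small MAF gene Maff at -0.062 ± 0.35 and Sqstm1, which encodes the KEAP1-binding autophagy receptor p62, at -0.19 ± 0.33.

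Heme breakdown and metallothionein genes had 1 of 6 higher (median -0.20). Blvrb, biliverdin reductase B, was at 0.42 ± 0.57 (SE), and the metal-binding Mt1 and Mt3 at -0.37 ± 1.06 and -0.018 ± 1.13 on 8 to 43 counts. Of 9 enzymes that make superoxide or peroxide 6 were higher (median 0.19). Both treated libraries stood above both controls for 33.3% of the 9 and below for 22.2%, beside 16.1% and 17.4% of all genes tested. The largest difference was that of Nox1, named after its values were seen, at a mean of 1.83 RPKM. Nox1 had 30 and 50 counts in the controls against 9 and 13 after ATV (log2 fold change -1.86 ± 1.05, SE). Ncf1, an oxidase subunit best known from phagocytes, had 42 and 63 counts in the controls against 102 and 139 after ATV (log2 fold change 1.19 ± 0.50, SE; edgeR adjusted p = 1.00, unadjusted 0.0382) at a mean of 5.58 RPKM, within the Olr range. Of the 10 leukocyte markers 1 had both treated libraries above both controls in RPKM and 2 had both below. Over all genes tested those shares in CPM were 16.1% and 17.4%. The 1 marker with both above was Tyrobp, a signalling adaptor of myeloid and natural killer cells. Tyrobp had 10 and 14 counts in the controls against 34 and 45 after ATV, and it is named after its values were seen. The part of such cells in the Ncf1 values was not tested. Cyba, Duox1 and Duox2 were at 0.55 ± 0.71, 0.17 ± 0.31 and -0.045 ± 0.33.

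**Figure D5:**
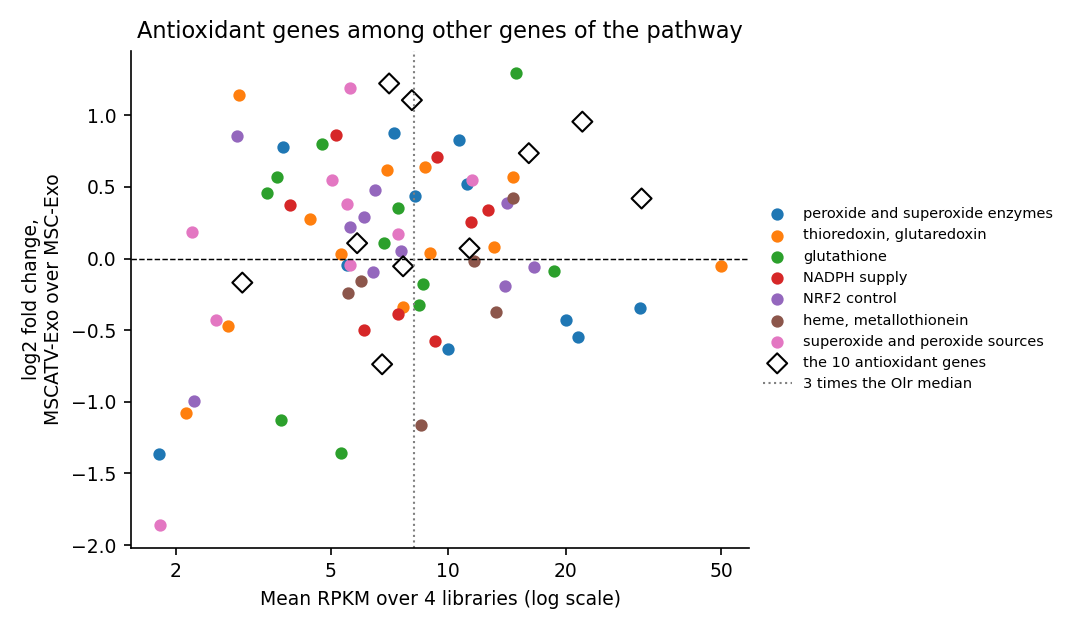
Log2 fold change (edgeR, MSCATV-Exo over MSC-Exo) against mean RPKM over the 4 libraries (log axis) for the 10 antioxidant genes (open diamonds) and 67 tested genes of 7 related lists (coloured points). The dotted line is 8.17 RPKM, and points lie on both sides of 0 to its left and to its right. Of the 67 related genes, 37 lie above 0. The most abundant of them, Txn1, Prdx5, Prdx2, Gpx4, Gstp1 and Maff, all lie below 0, and Gpx1, Prdx1 and Sod1 lie above it.

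In the authors' deposited table, which gives a q-value from a test that is not stated, 4 of the 10 genes had a q under 0.05, where 34.3% of the 38021 genes in it did. Sod2 (q = 3.96e-05), Prdx1 (0.000284) and Hmox1 (0.000635) were higher in MSCATV-Exo in the authors' deposited table, as were 12.4% of its genes. Sod3 (0.00387) was lower there, as were 21.9%. Sod1 had a q of 0.0535 and Gpx1 one of 0.141 in the authors' deposited table.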

How the data were processed

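Exosome RNA of 4 libraries, 2 MSC-Exo and 2 MSCATV-Exo, was sequenced with the NEBNext Ultra kit, per the labels. Reads were aligned with TopHat2 to rn6, also named Rnor_6.0, per the submitters' processing notes; the counter and annotation release are not given in the sources used here. The authors deposited whole-number read counts per gene and, beside them, RPKM values. The authors' deposited comparison table gives a mean RPKM per group, a log2 ratio, a p-value and a q-value.

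Counts of all 42977 genes were filtered with filterByExpr, leaving 33480, scaled with TMM factors and tested with the quasi-likelihood test of edgeR 4.0.16 in R 4.3.3, which is two-sided. A gene was called at a p under 0.05 after Benjamini-Hochberg adjustment. The biological coefficient of variation was 0.559. In simulated data of 33480 genes with this comparison's depth, 4 of 100 true 2-fold changes and 66 of 100 true 4-fold changes were called by edgeR, beside 4 false ones. The changed genes were drawn only from genes with a higher mean CPM than any of the 10 antioxidant genes. These shares therefore do not describe the 10. Poisson intervals cover counting error only, and reads carry no molecular identifiers.

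Alternatives were DESeq2 1.42.0, limma 3.58.1 on log2(RPKM + 1) and log2(RPKM + 0.1) for genes with a mean of at least 1 RPKM, other scalings and filters, the replicate block and each library left out. The 10 genes, the lists, the reference level and the tests were chosen with earlier results of these data known. Named pathway genes were the 3 with the highest mean RPKM in each list and those with an unadjusted p under 0.05. Exceptions are stated. Replicate numbers are not said to pair libraries, so the main fit has no block.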

Additional observations from a re-analysis of the deposited data

How the results depend on the processing

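Neither the 10 antioxidant genes nor the 67 related genes gave a call under any of the 14 alternatives. Sod1, Sod2, Hmox1, Prdx1 and Gpx1 were higher in MSCATV-Exo under every alternative in which they were tested. For each of these genes both treated libraries stood above both controls. Leaving out a library could therefore hardly turn the sign, and the other alternatives reuse the same counts, so this is no separate support. The count of called genes in the whole table, 0 by edgeR, was 106 by DESeq2, 8 with no filter on low counts, 4 with the replicate block and 2 when only genes above 3 times the olfactory receptor median were tested, and it ran from 1 to 168 with a library left out (168 without MSCATV-Exo replicate 2, 27 without MSCATV-Exo replicate 1). The block pairs libraries by a shared number alone; deviations of same-numbered libraries had a correlation of -0.000516. The median log2 fold change of the 10 genes, 0.26, was 0.16 with total counts, 0.22 and 0.23 with limma, 0.48 when only the 4 above that level were tested and 0.32 to 0.60 with a library left out. Nqo1 turned to -0.052 and -0.041, and Msrb1 to -0.000214 and -0.017, above that level and with total counts. With a library left out Nqo1 ranged from -0.49 to 1.01, Sod3 from -1.28 to 0.12, Txnrd1 from -0.57 to 0.33, Cat from -0.15 to 0.35 and Gclm from -1.48 to 0.71. The sign changed this way for 5 of the 10 genes, those whose groups overlapped, and 32 of the 67 related ones. Among the related genes named by the rule the ranges were -0.36 to 0.21 for Txn1, -0.40 to 0.79 for Msrb1, -0.77 to 0.38 for Gstp1, -0.44 to 0.14 for Gsto1, -0.24 to 1.00 for Tkt, -0.13 to 0.69 for Pgd, -0.39 to 0.35 for Maff, -0.027 to 0.71 for Nfe2l1, -0.28 to 0.91 for Blvrb, -2.03 to 0.38 for Mt1, -1.39 to 0.67 for Mt3 and -0.32 to 0.19 for Duox2. The cause of these changes was not tested. With 2 libraries a group at these depths and this spread, edgeR called 4 of 100 simulated 2-fold changes. Those changes were placed in genes with a higher mean CPM than any of the 10 genes. The parts of depth, spread and library number were not tested.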
